A study of Mus musculus with 3 samples.

Results

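The cells described here are 133 macrophages of the mouse left ventricle that carried transcripts of Spp1, Gpnmb or Arg1, the genes by which lipid-associated macrophages are usually named. They were chosen on raw UMIs, the unique molecular identifiers that count single captured RNA molecules. A barcode had to hold at least 500 UMIs and 300 genes with at most 20% mitochondrial UMIs, at least 4 UMIs summed over the macrophage genes Cd68, Lyz2 and Csf1r, and at least 3 summed over Spp1, Gpnmb and Arg1. It could hold at most 5 UMIs of the fibroblast collagens Col1a1 and Col3a1 and none of the lymphocyte genes Cd79a and Cd3e. Of 96654 deposited barcodes 45239 passed the general limits and 5826 passed the macrophage limits, among them the 133. They are called the selected macrophages below, and the remaining 5693 the other macrophages. These 10 genes chose the cells, so their levels are given as a description.

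Each of the 3 libraries was made from left ventricles of C56Bl6 mice, with 4 samples pooled before capture on the 10x Chromium platform. The Control library came from mice on the control diet for 10 weeks, with no vector named. The HFpEF-scr library came from mice on the High-Fat + L-NAME diet, a fat-rich diet with an inhibitor of nitric oxide synthesis, given to mice as a model of HFpEF, heart failure in which the ejection fraction is preserved. These mice had the diet for 6 weeks and then AAV-scramble-sh, an adeno-associated virus with a scrambled hairpin, for 4 weeks. The HFpEF-FoxO1-sh library had the same diet for 6 weeks and then AAV-FoxO1-sh, a hairpin against the transcription factor FoxO1, for 4 weeks. The promoter of the hairpins and the cells reached by the virus are not given in the sources used here. Cells were released by enzymes, strained to remove cardiomyocytes and treated to lyse red cells, so the shares below are shares of what survived that handling. Where 3 values are given for 1 quantity, the first is Control, the second HFpEF-scr and the third HFpEF-FoxO1-sh.

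Foxo1, the gene aimed at by the hairpin, was read at 61.2, 56.4 and 60.1 CPM (UMIs of a gene per 1000000 UMIs) over all filtered barcodes. The library labelled HFpEF-FoxO1-sh was therefore not lower than HFpEF-scr over the captured cells, from which cardiomyocytes had been strained. In the selected macrophages Foxo1 was at 9.13, 8.70 and 12.3 CPM from 3, 8 and 4 UMIs, too few to order, and in the other macrophages at 16.3, 14.5 and 15.4 CPM. Lower Foxo1 in these macrophages was not detectable at this depth, and HFpEF-FoxO1-sh stands below for the label of that library, not for a measured knockdown.

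Lipid-associated macrophages arise where cells die or lipid accumulates, in adipose tissue, atherosclerotic plaque, injured muscle and infarcted heart. They take up dying cells and lipoproteins, degrade them in lysosomes, and store or export the lipid. Trem2, a receptor for lipids and apolipoproteins, drives much of this programme. Spp1 encodes osteopontin, a secreted matrix protein that binds integrins. Gpnmb encodes a glycoprotein of lysosomal and endosomal membranes, Arg1 the arginase that turns arginine into ornithine, and Fabp5 a carrier of fatty acids in the cytosol. Resident cardiac macrophages carry Timd4, Lyve1 and Folr2 instead, and macrophages derived from monocytes carry Ccr2 and much MHC class II.

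The sequences just upstream of 3 genes are shown: Spp1 and Gpnmb, which helped to choose the cells, and Trem2, the receptor named above, which did not. They are the 250 bases before the first transcription start that RefSeq lists on GRCm38.p6, the build also called mm10. Capitals mark the match to a searched motif.
Spp1 chr5:104434861-104435110 + strand: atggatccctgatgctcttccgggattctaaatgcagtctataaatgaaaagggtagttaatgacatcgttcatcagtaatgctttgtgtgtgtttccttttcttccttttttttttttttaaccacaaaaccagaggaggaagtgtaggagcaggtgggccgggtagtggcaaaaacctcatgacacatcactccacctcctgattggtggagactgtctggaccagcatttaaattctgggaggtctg
Gpnmb chr6:49036268-49036517 + strand: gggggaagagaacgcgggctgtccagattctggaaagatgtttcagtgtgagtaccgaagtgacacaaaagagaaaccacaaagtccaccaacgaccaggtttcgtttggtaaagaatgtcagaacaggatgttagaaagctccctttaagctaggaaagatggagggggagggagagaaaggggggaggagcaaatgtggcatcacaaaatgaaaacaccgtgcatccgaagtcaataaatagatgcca
Trem2 chr17:48346151-48346400 + strand: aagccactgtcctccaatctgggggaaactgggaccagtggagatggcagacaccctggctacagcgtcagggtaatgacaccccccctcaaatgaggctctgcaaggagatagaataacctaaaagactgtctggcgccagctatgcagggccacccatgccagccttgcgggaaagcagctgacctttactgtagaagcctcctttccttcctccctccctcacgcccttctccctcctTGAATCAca
Both strands were searched for CACGTG, the E-box that transcription factors of the MiT/TFE family bind, and for TCATGTG, the M-box of the same family. They were also searched for TGANTCA, a loose form of the AP-1 site with any middle base allowed, and for GTAAACA, the forkhead site. E-box letters occur in 6.02% of 32851 mouse promoters of this length, M-box letters in 3.25%, AP-1 letters in 6.75% and forkhead letters in 3.17%. The match marked above, TGAATCA 9 bases before the start of Trem2, was the only one in the 3 windows. It matches the loose AP-1 letters, and whether AP-1 binds there was not tested. In GENCODE coordinates on the same build, Spp1 spans chr5:104435118-104441050 and Gpnmb chr6:49036546-49070929, both on the + strand. Arg1 spans chr10:24915221-24927484 on the − strand, and Fabp5 chr3:10012548-10016607 on the + strand.

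The libraries held 29, 72 and 32 selected macrophages. Their share of all macrophages was 2.06% in Control (exact 95% interval 1.38 to 2.95, 29 of 1407). It was 3.44% in HFpEF-scr (2.70 to 4.32, 72 of 2091) and 1.37% in HFpEF-FoxO1-sh (0.942 to 1.93, 32 of 2328). HFpEF-scr thus had the highest value and HFpEF-FoxO1-sh the lowest, and the interval of Control overlapped both others. The HFpEF-scr share was 1.67 times that of Control (1.07 to 2.67), and the HFpEF-FoxO1-sh share was 0.399 times that of HFpEF-scr (0.255 to 0.613). The ratio of HFpEF-scr to Control stayed above 1 in other settings, but its interval covered 1 in several. It was 1.49 (0.82 to 2.83) at a mitochondrial limit of 10% and 1.45 (0.85 to 2.57) with at least 6 Spp1, Gpnmb and Arg1 UMIs. With a Gpnmb UMI required it was 1.41 (0.70 to 2.98), and thinned to 2000 UMIs per barcode 1.47 (0.72 to 3.20). With 1 library per group no comparison between libraries can be tested, and these intervals cover counting error alone. Diet, vector and library cannot be told apart. As a share of all barcodes that passed the limits the values were 0.224%, 0.483% and 0.184%. The last step depended on the mitochondrial limit: at 10% in place of 20%, HFpEF-FoxO1-sh stood at 0.140 times HFpEF-scr (21 of 1217 against 43 of 349 macrophages). Barcodes above the 20% limit made up 56.9%, 53.8% and 31.2% of all, and the part of this in the shares was not tested.

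**Figure D1:**
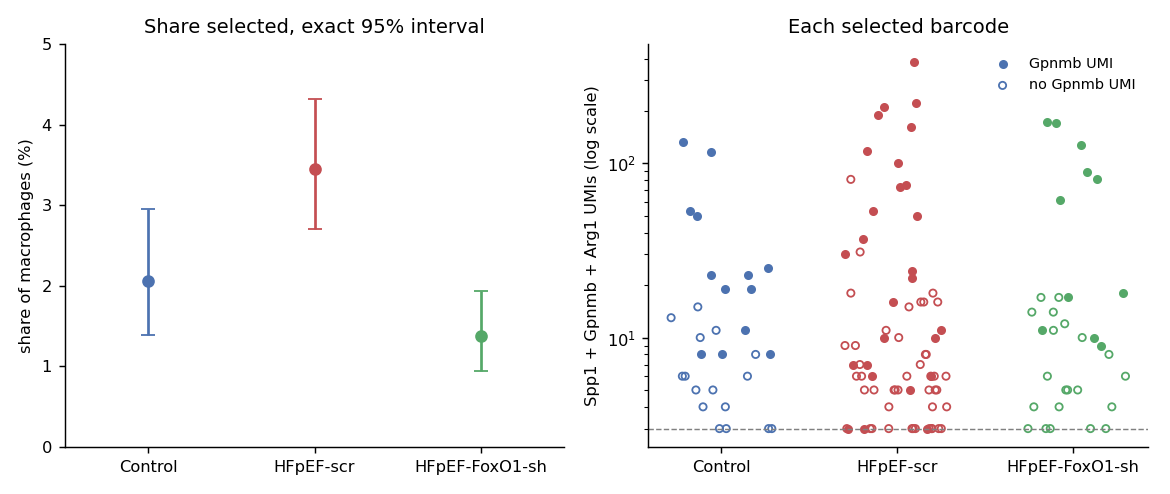
Selected macrophages as a percentage of all macrophages in each library with exact 95% intervals, and the summed Spp1, Gpnmb and Arg1 UMIs of each selected barcode on a log axis, filled where a Gpnmb UMI was present. The dashed line marks the limit of 3 UMIs. HFpEF-scr has the highest share at 3.44%, and the sums run from 3 to 133, 381 and 173 UMIs, from left to right.

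Spp1 was the gene that admitted most of the cells. At least 1 Spp1 UMI was present in 29 of 29, 69 of 72 and 30 of 32 selected macrophages. A Gpnmb UMI was present in 13, 27 and 11 of them, and an Arg1 UMI in 2, 10 and 6. Spp1 alone was present in 77 of the 133, and all 3 genes in 12. Of the 51 cells with Gpnmb 47 also held Spp1. The limit of 3 UMIs was reached by Gpnmb alone in 42 cells and by Spp1 alone in 123. The name lipid-associated therefore has Gpnmb behind it in 51 cells and only Spp1 or Arg1 in the other 82. The summed level of Spp1 across the selected cells was 1318, 2042 and 2468 CPM, against 5.26, 9.91 and 5.79 CPM in the other macrophages. Gpnmb stood at 496, 330 and 352 CPM and Arg1 at 15.2, 58.7 and 33.9 CPM.

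A few cells held much of the Spp1 message: the 5 highest barcodes carried 35.2% of its UMIs. Spp1 UMIs per selected cell had medians of 6, 6 and 9, with highest values of 100, 366 and 164. The highest Gpnmb values were 40, 57 and 34 UMIs, and the highest Arg1 values 3, 22 and 5. At the edge of the rule, 4, 15 and 5 selected cells held exactly 3 UMIs of the 3 genes, and just outside it 11, 36 and 17 macrophages held 2.

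Spp1 UMIs were rare in cells that should lack them. A Spp1 UMI was found in 0.471%, 0.666% and 0.542% of fibroblast-like barcodes, at median depths of 7181, 6789 and 7199 UMIs, and in 3.19%, 4.95% and 3.27% of the other macrophages. At least 3 UMIs of Spp1, Gpnmb and Arg1 were found in 0.555% (46 of 8289), 0.535% (49 of 9164) and 0.571% (59 of 10339) of fibroblast-like barcodes. These 3 shares differ little between the libraries, and all lie below the shares in macrophages. Fabp5 was different: 35.2%, 29.3% and 32.5% of fibroblast-like barcodes held a UMI of it, more than the 15.6%, 16.5% and 12.8% of the other macrophages. In the selected macrophages the shares were 62.1%, 66.7% and 37.5%.

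The selected barcodes were deeper than the rest. Their medians were 11445, 11376 and 9948 UMIs, against 6835, 6109 and 6357 in the other macrophages. A rule on raw UMIs admits deep barcodes more readily, and a comparison matched on depth is therefore given beside the main results. Median mitochondrial shares were 9.54%, 8.75% and 8.05%, against 14.4%, 13.9% and 9.74%. The 14 macrophage markers summed to 27185, 25547 and 37893 CPM, against 32332, 29768 and 35212 in the other macrophages. Lyz2, which helped to choose the cells, made up 16187, 13882 and 20890 CPM of this, against 11947, 11198 and 12372 CPM in the other macrophages. The sums of the selected cells thus leaned on Lyz2. Csf1r, the growth factor receptor of macrophages, was at 326, 380 and 484 CPM against 842, 789 and 840. The F4/80 gene Adgre1, not used in the choice, was at 164, 203 and 312 CPM against 329, 322 and 329. B cell markers summed to 18.3, 8.70 and 6.17 CPM and T or NK cell markers to 6.09, 0 and 15.4 CPM, with Cd79a and Cd3e at 0 by the rule and Ms4a1, Cd3d, Cd3g and Gzma at 0 beside them. Smooth muscle or pericyte markers summed to 332, 32.6 and 15.4 CPM, against 201, 215 and 216. At least 2 UMIs of the dendritic cell markers Xcr1, Clec9a, Cd209a and Flt3 were carried by 6, 6 and 0 selected cells. At least 2 UMIs of the resident markers Timd4 and Lyve1 were carried by 0, 1 and 4. Dendritic markers summed to 189, 73.9 and 0 CPM, against 126, 98.7 and 90.4 in the other macrophages. Fibroblast markers summed to 240, 295 and 293 CPM, against 340, 305 and 358, and endothelial markers to 883, 976 and 500 CPM, against 1011, 1131 and 898. Neutrophil markers summed to 36.5, 2878 and 21.6 CPM, against 966, 2711 and 1174. At least 20 UMIs of the neutrophil markers S100a8 and S100a9 were held by 1 selected cell, in HFpEF-scr. No selected cell shared its barcode with another library, and the doublet caller Scrublet marked 1, 1 and 0 of them.

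The cells with and without a Gpnmb UMI differed across many genes. These values are a description with no test, since Gpnmb was part of the choice. Fabp5, the fatty acid carrier, was present in 45 of the 51 cells with Gpnmb and in 33 of the 82 without it. Its median was 27, 34 and 27 UMIs per cell with Gpnmb, and 0 in every library without it. Over the 133 barcodes the Spearman rho of CPM was 0.69 for Gpnmb and Fabp5, 0.35 for Spp1 and Gpnmb, and 0.26 for Spp1 and Fabp5. These points share libraries and unequal depths, and the sum of Spp1, Gpnmb and Arg1 chose them, so the values are a description. Within the libraries the rho was 0.66, 0.77 and 0.53 for Gpnmb and Fabp5 and 0.22, 0.25 and 0.36 for Spp1 and Fabp5.

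Lysosomal genes stood higher in the cells with Gpnmb, and some genes of lipid handling did. Apoe, the apolipoprotein that macrophages secrete with cholesterol, was at 21342 CPM with Gpnmb and 6575 without. The lysosomal proteases Ctsd and Ctsb were at 5121 against 1168 CPM and at 5599 against 1699 CPM. The vesicle protein gene Syngr1 was at 214 against 18.0 CPM. Trem2 was at 1042 against 247 CPM in Control and 1078 against 249 CPM in HFpEF-scr, but at 874 against 802 CPM in HFpEF-FoxO1-sh. Of 25 measured genes of the lysosome list, 14 were at least 2-fold higher with Gpnmb and 0 lower, with a median log2 ratio of 1.01. Over all 5292 measured genes 225 were at least 2-fold higher and 466 lower, with a median of −0.04. In the lipid-associated list 14 of 29 were higher and 1 lower. Of 16 genes of lipid uptake, storage and oxidation 2 were higher and 2 lower, and of 9 cholesterol synthesis genes 0 were higher and 2 lower. Lpl, the lipoprotein lipase, was at 695 against 593 CPM, Cd36 at 506 against 578 CPM and Fabp4 at 104 against 340 CPM.

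Antigen presentation and cell cycle genes, and part of the inflammatory genes, stood lower in the cells with Gpnmb. Of 8 measured MHC class II genes 7 were at least 2-fold lower, with a median log2 ratio of −1.18, and 7 were lower in all 3 libraries. H2-Ab1 was at 2049 CPM with Gpnmb and 4823 without, and the invariant chain Cd74 at 4966 and 10954 CPM. Of 17 inflammatory genes 7 were at least 2-fold lower and 2, Clec4e and Clec4d, higher, with a median of −0.85. The chemokine Cxcl2 was at 235 and 1682 CPM and the cytokine Il1b at 136 and 358 CPM. Of 18 measured proliferation genes 17 were at least 2-fold lower, with a median log2 ratio of −3.26. Median depth was 11505 UMIs with Gpnmb and 10559 without.

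**Figure D2:**
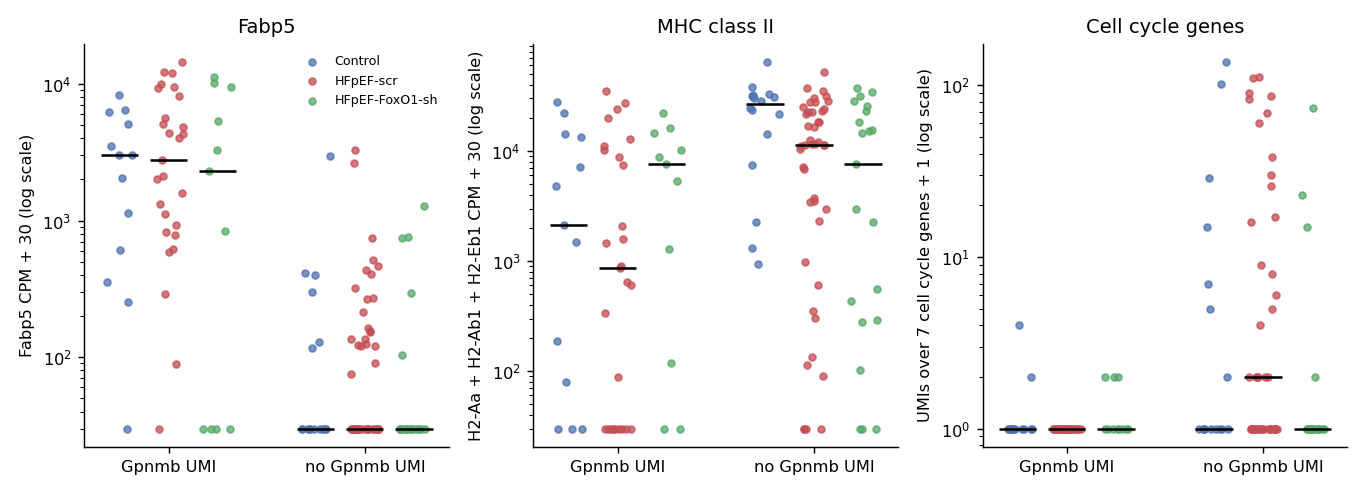
Each point is 1 selected barcode, split by a Gpnmb UMI and coloured by library, with black bars at the library medians and log axes for Fabp5 CPM + 30, the summed CPM of 3 MHC class II genes + 30, and UMIs over 7 cell cycle genes + 1. Fabp5 is mostly high with Gpnmb, and without it the median is 0 in every library, though 33 of those 82 barcodes hold Fabp5. The barcodes with at least 5 cell cycle UMIs all lie on the side without Gpnmb.

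Against the other macrophages, the selected cells had 323 genes higher and 455 lower of 11221 tested. Counts were summed per library and cell group, and the fit kept the library as a block, so each gene was compared within the 3 libraries. A gene was called at a Benjamini-Hochberg adjusted p under 0.05 in edgeR's quasi-likelihood test with at least a 2-fold difference. The higher calls were 2.88% of the genes tested and the lower calls 4.05%, and 2854 genes had an unadjusted p under 0.05. The list counts against other macrophages given below are to be read beside these shares, and no list was tested as a set. Of the calls, 297 of the 323 higher and 448 of the 455 lower went the same way in every library. HFpEF-scr supplied 72 of the 133 cells, and without it 108 genes were higher and 127 lower. With the other macrophages matched one to one on depth, 82 were higher and 118 lower, and 165 of these 200 calls were among the 778 above. The p-values measure the spread between 3 pooled libraries of 3 different conditions.

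Genes that mark lipid-associated macrophages in other tissues were higher as a group. The list was chosen with results of these cells known, so its direction is a description. Of 30 tested, 18 were higher and 1 lower, with a median log2 fold change of 1.24 against −0.05 over all genes, and with matched depth 13 of 28 were higher and 0 lower. Syngr1 had the largest increase among called genes that went one way in every library, at 91.3, 94.6 and 105 CPM against 3.99, 2.64 and 3.22 CPM in the other macrophages. The selected cells lay far above the others in every library (log2 fold change 4.94, SE 0.25, adjusted p = 1.95e-12), and 39 of the 133 selected cells carried it. Summed over cells, Fabp5 was at 1811, 1889 and 1916 CPM against 73.4, 77.2 and 67.1 CPM (log2 fold change 4.72, SE 0.12, adjusted p = 1.81e-18). These similar sums leaned on few cells, as 18 of 29, 48 of 72 and 12 of 32 selected cells carried it. The 5 highest barcodes of each library held 73.4%, 47.6% and 87.9% of its UMIs. The cathepsin Ctsk was 3.54 higher on the log2 scale (SE 0.59) but seen in only 11 selected cells.

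The same list holds the lipid receptor Trem2 and other genes of uptake and storage, given here after their values were seen. Lgals3, which encodes galectin-3, a lectin that binds damaged lysosomes and glycoproteins, was at 4117, 4403 and 3202 CPM against 415, 562 and 437 CPM, and 127 of 133 selected cells carried it. Its log2 fold change was 3.08 (SE 0.10, adjusted p = 5.86e-16). Trem2, summed over cells, was at 612, 564 and 830 CPM against 200, 213 and 216 CPM, higher in every library. Its log2 fold change was 1.68 (SE 0.12). Single cells overlapped between the groups. A Trem2 UMI was present in 21 of 29, 54 of 72 and 30 of 32 selected cells. It was also present in 762 of 1378, 1096 of 2019 and 1287 of 2296 other macrophages. Plin2, the coat protein of lipid droplets, was 1.54 higher on the log2 scale, the tetraspanin Cd9 1.73 and Lpl 1.21. Fabp4, another fatty acid carrier, was the 1 gene of the list that was lower. Apoe did not pass, at a log2 fold change of 0.12 (adjusted p = 0.46), and neither did the scavenger receptor Cd36 at 0.02.

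Lysosomal genes were higher in small number. Of 27 tested 4 were higher, namely Gla, Psap, Atp6v1a and Npc1, and 0 lower, with a median log2 fold change of 0.43. Psap, the precursor of the saposins that help to break down sphingolipids, was at 3198, 3546 and 3054 CPM against 1289, 1411 and 1283 CPM. Its log2 fold change was 1.32 (SE 0.09, adjusted p = 2.65e-10). Gla, the α-galactosidase that cleaves glycolipids, was 1.59 higher, the proton pump subunit Atp6v1a 1.18, and Npc1, which carries cholesterol out of the lysosome, 1.09. With matched depth 5 of 21 were higher and 0 lower.

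Genes that store and export cholesterol included several that passed. Soat1, which esterifies cholesterol for storage, was at 234, 238 and 182 CPM against 62.3, 84.0 and 58.0 CPM (log2 fold change 1.70, SE 0.14). Nceh1, which hydrolyses those esters, was 2.03 higher (SE 0.18). The LXR receptor Nr1h3 was 1.44 and the exporter Abcg1 1.21 higher, while Pltp, a phospholipid transfer protein, was −1.45. That makes 3 of 11 efflux genes higher and 1 lower, with a median of 0.26. Of 27 genes of lipid uptake, storage and oxidation 5 were higher, among them the oxidised LDL receptor Olr1 at 2.85 and the fatty acid transporter Slc27a1 at 1.13, and 0 lower. The median of that list was 0.10. Without HFpEF-scr 1 of 26 was higher, with DESeq2 2 of 27 and with matched depth 1 of 10. In the efflux list 1 of 11 was higher without HFpEF-scr and 1 of 6 with matched depth. In cholesterol synthesis 3 of 16 were higher, namely Mvd at 1.53, Cyp51 at 1.52 and Fdps at 1.14. None was called in edgeR with matched depth (1 of 6 had an unadjusted p under 0.05) or without HFpEF-scr (5 of 16 had).

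Glycolysis and hypoxia genes were higher in 7 of 26 cases and lower in 0, with a median of 0.65. Pgam1, a glycolytic mutase, was at 247, 397 and 234 CPM against 96.0, 104 and 96.5 CPM (log2 fold change 1.59, SE 0.14). The angiogenic factor Vegfa was 1.79 higher (SE 0.43, adjusted p = 0.00572) and the hypoxia gene Ndrg1 1.34. With matched depth 2 of 16 passed, and without HFpEF-scr 4 of 26. Among 21 genes of oxidative stress and iron, the redox gene Srxn1 and the ferritin chain Fth1 were higher, at 1.32 and 1.10. The iron exporter Slc40a1 and the transferrin receptor Tfrc were lower, at −2.58 and −1.79, and the median of the list was 0.23. Ass1, the synthase that feeds arginine production, was at 42.6, 41.3 and 33.9 CPM against 6.04, 8.44 and 5.66 CPM, the 1 call among 9 arginine and polyamine genes.

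Genes shared with osteoclasts, the bone-resorbing relatives of macrophages, were higher in 4 of 13 cases and lower in 0, with a median of 0.58. Without HFpEF-scr 3 were higher and 1 lower, with a median of −0.11, and with matched depth 2 of 10 were higher, with a median of 0.01. Acp5, the tartrate-resistant acid phosphatase, was at 146, 73.9 and 64.8 CPM against 13.2, 11.7 and 11.1 CPM (log2 fold change 2.93, SE 0.22, adjusted p = 9.75e-10). Atp6v0d2, a subunit of the lysosomal proton pump, was at 45.6, 81.5 and 24.7 CPM against 3.90, 5.58 and 5.6 CPM, but a single barcode held 44.9% of its UMIs. Among matrix genes 4 of 26 were higher, including the membrane protease Mmp14 at 2.97 (SE 0.40), and 3 lower, including the growth factor Pdgfc at −2.02. Fn1, fibronectin, was the 1 monocyte-list gene that was higher, at 332, 1052 and 592 CPM against 154, 210 and 84.0 CPM. Il7r, the interleukin-7 receptor chain, was at 76.1, 109 and 86.4 CPM against 4.19, 5.43 and 5.21 CPM and was carried by 42 selected cells. Galnt6, an enzyme that starts O-linked glycosylation, was 3.95 higher (SE 0.47) in 33 cells.

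**Figure D3:**
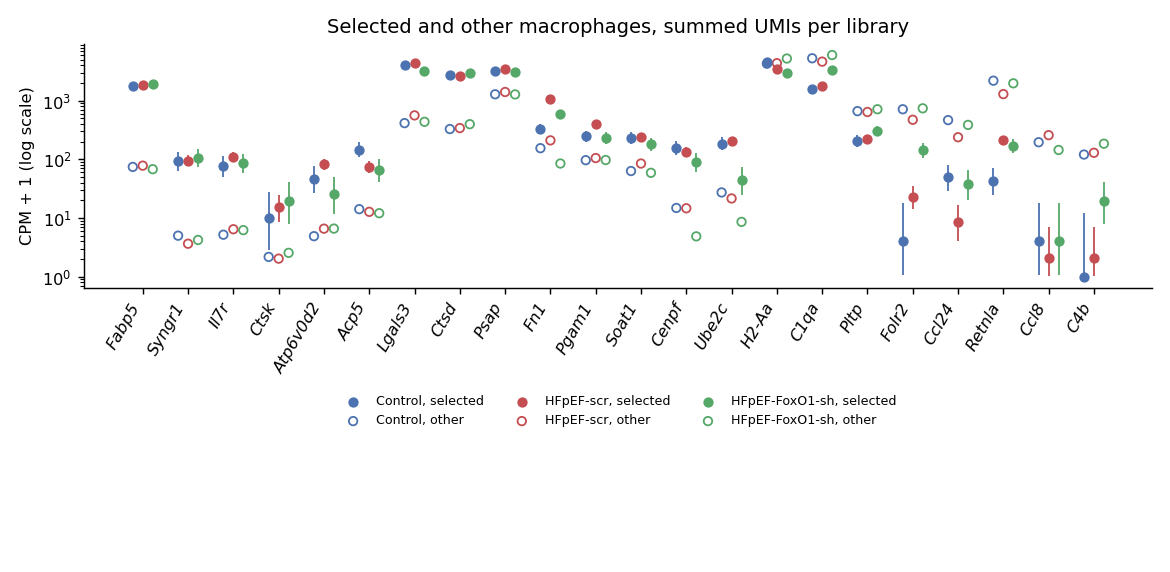
Levels of named genes as CPM + 1 on a log axis, with a filled point for the selected and an open point for the other macrophages of each library and exact 95% Poisson intervals for the selected ones. Syngr1, Fabp5 and Lgals3 lie above and the resident gene Folr2 below the other macrophages in every library.

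Resident macrophage genes were lower almost throughout. Of 20 tested 18 were lower and 0 higher, with a median log2 fold change of −2.81, and with matched depth 14 of 19 were lower. Of the 5693 other macrophages 2631 were resident macrophages, chosen by Timd4, Lyve1 or Folr2. Against the MHC class II macrophages described below, which held no UMI of these genes, 1 of 14 resident genes was lower, Cd163, and 0 higher. The median there was −0.37. Folr2, a folate receptor of resident macrophages, was at 3.04, 21.7 and 142 CPM against 716, 474 and 743 CPM (log2 fold change −3.78, SE 0.32). HFpEF-FoxO1-sh was thus the library with the most Folr2 in the selected cells. It held 4 of the 5 selected cells with at least 2 UMIs of Timd4 and Lyve1, a count that leaves out Folr2. The eosinophil chemokine Ccl24 was at −3.78, the haemoglobin scavenger receptor Cd163 at −3.60 and the mannose receptor Mrc1 at −2.13. Cd209f, a C-type lectin, had no UMI in any selected cell, which puts it at least 39.7-fold lower against a floor of 3 UMIs over the group. Retnla, a resistin-like protein of alternative activation, was at 42.6, 212 and 170 CPM against 2201, 1299 and 1986 CPM. The lectin Mgl2 was at −1.76.

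Complement and interferon genes were also lower. In complement 5 of 9 were lower and 0 higher, with a median of −1.21. C1qa, a chain of the first component, was at 1564, 1821 and 3338 CPM against 5310, 4654 and 6026 CPM (log2 fold change −1.29, SE 0.12). The complement component C4b was at −4.91. With matched depth 3 of 7 were lower. Of 25 interferon genes 6 were lower and 0 higher, with a median of −1.0. Iigp1, an interferon-induced GTPase, had no UMI and was at least 13.3-fold lower. The guanylate-binding protein Gbp5 was at −3.22. With matched depth 0 of 7 passed in edgeR (2 had an unadjusted p under 0.05), and without HFpEF-scr 1 of 25 did.

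Of 18 chemokines and receptors tested 4 were lower and 1, Cxcl14, was higher. Ccl8, an attractant of monocytes, was found in 3 of 133 selected and 788 of 5693 other cells (log2 fold change −6.80, SE 0.33). The B cell attractant Cxcl13 and the T cell attractant Cxcl9 had no UMI and were at least 48.1-fold and 9.24-fold lower. Other genes with no UMI in the selected cells were Tnfrsf17 at 10.8-fold, the histamine receptor Hrh1 at 5.96-fold, F830016B08Rik at 5.6-fold and Stfa2l1 at 4.27-fold, all lower bounds. Monocyte genes were lower in 7 of 15 cases, including Ace at −2.20 and Treml4 at −3.26. With matched depth 0 of 6 were lower in edgeR, 3 having an unadjusted p under 0.05 in either direction. With no replicate block 0 of 15 were lower (3 had such a p), with DESeq2 2, and without HFpEF-scr 1, where the median was 0.12 in place of −0.24. Inflammatory genes were higher in 2 of 23 cases, Osm at 1.38 and the lectin receptor Clec4d at 1.85, in 1 case without HFpEF-scr, with a median of −0.26. Against the 2.88% of all genes called higher this count says little. Among the selected cells with Gpnmb 6 of 23 were lower and 2 higher. MHC class II genes passed in 0 of 10 cases in both edgeR and DESeq2, 4 with an unadjusted p under 0.05 in edgeR and 3 in DESeq2, with H2-Aa at −0.32 (adjusted p = 0.064). This depended on the cells taken. With a Gpnmb UMI required 7 of 10 were lower and 0 higher, with a median of −1.18. Without the selected cells that held dendritic, neutrophil or resident markers 3 of 10 were lower, and with matched depth 0 of 7. In phagocytosis 2 of 16 were higher, the receptor Cd300lf at 2.83 and annexin Anxa1 at 1.92. Fcgr4 at −1.04 and Pros1 at −1.55 were lower.

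**Figure D4:**
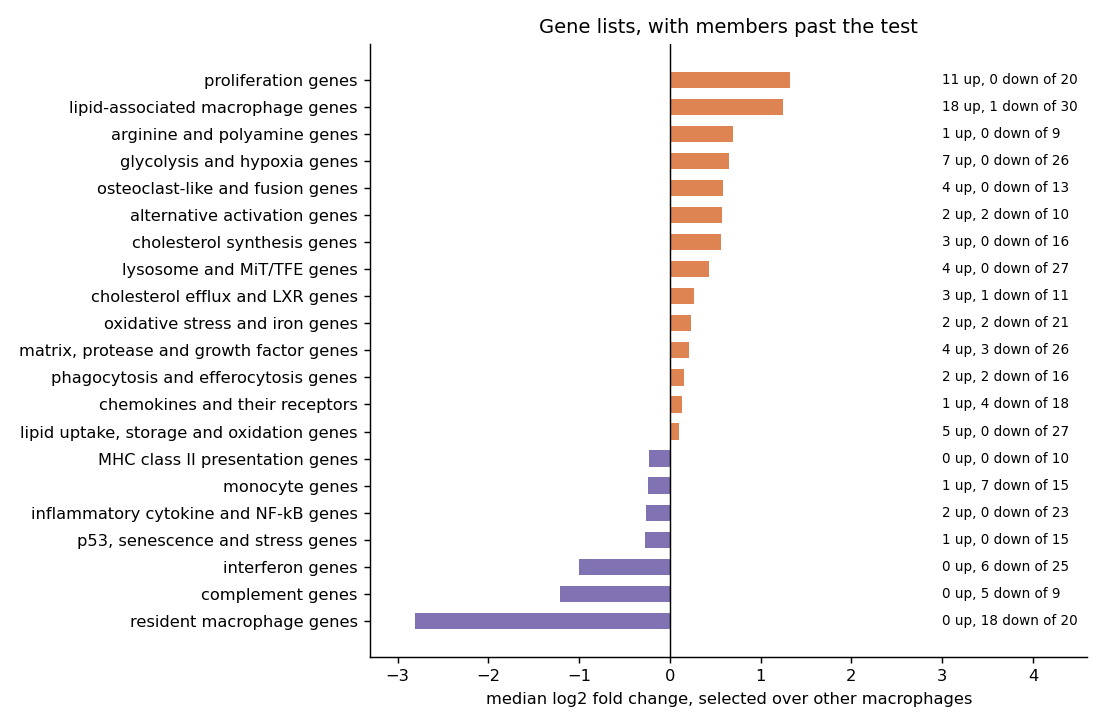
Bars give the median log2 fold change of each gene list in selected against other macrophages, with the numbers of tested genes called higher (up) and lower (down) at the right. The lipid-associated list has a median of 1.24 with 18 of 30 higher, and the resident list −2.81 with 18 of 20 lower.

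Cell cycle genes were higher in part of the selected cells. Of 20 proliferation genes 11 were higher and 0 lower, with a median of 1.32. Ube2c, which drives exit from mitosis, was at 186, 209 and 43.2 CPM against 26.3, 20.6 and 7.59 CPM (log2 fold change 3.03, SE 0.19, adjusted p = 6.78e-11). The kinetochore gene Cenpf was at 158, 134 and 89.5 CPM against 13.8, 13.7 and 3.86 CPM, and the kinetochore motor Cenpe was 3.85 higher. The mitotic genes Nek2 and Hmmr were both 3.60 higher. The remaining genes among the 12 largest increases were Gpc1, a cell-surface proteoglycan, at 3.71, Sapcd2 at 3.62, Fam83d at 3.58 and 2610318N02Rik at 3.82.

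The count depended on the comparison cells. With the other macrophages matched on depth, 0 of 17 proliferation genes passed in edgeR (3 had an unadjusted p under 0.05), with a median log2 fold change of 0.17. At least 5 UMIs over 7 cell cycle genes were found in 23 of 133 selected cells, or 17.3% (exact 95% interval 11.3 to 24.8). In the other macrophages the share was 2.39% (2.01 to 2.82, 136 of 5693). After each barcode was thinned to 2000 UMIs, with at least 2 UMIs of these genes required, the shares were 13.6% (18 of 132) and 2.13%. The 23 cells were 5, 15 and 3 of the libraries, with a median of 13680 UMIs against 10794 in the rest.

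Cycling cells lay on the side without Gpnmb. None of the 51 cells with a Gpnmb UMI was among them, which allows a share of up to 5.88% by the limit of 3 counts and 6.98% by the exact 95% interval, against 23 of 82 without it (28.0%, 18.7 to 39.1). By the summed Spp1, Gpnmb and Arg1 UMIs they were 14 of 46 cells at 3 to 5, 9 of 57 at 6 to 19 and 0 of 30 at 20 or more. The 30 cells at 20 or more included 28 with Gpnmb and 29 with Fabp5. Their median MHC class II level was 364 CPM, against 14624 CPM at 3 to 5 and 11520 CPM at 6 to 19. By library the median at 20 or more was 159, 58.9 and 6419 CPM, from 7, 17 and 6 cells. At 6 to 19 it was 24228, 10809 and 7624 CPM, so in HFpEF-FoxO1-sh the 2 medians lay close together.

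The 2 larger kinds of macrophage gave different contrasts. Resident macrophages, chosen by Timd4, Lyve1 or Folr2, numbered 2631, and MHC class II macrophages, chosen by H2-Aa, H2-Ab1 and H2-Eb1, 2051. Those choosing genes were not tested in the contrast they define. Against the resident cells 556 of 10100 genes were higher (5.50%) and 664 lower (6.57%). Against the MHC class II cells 263 of 9238 were higher (2.85%) and 267 lower (2.89%). Without HFpEF-scr 291 and 277 genes were called against resident and 135 and 145 against MHC class II cells.

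Monocyte genes separated the selected cells from resident macrophages, with 9 of 10 higher, 0 lower and a median of 3.56. The chemokine receptor Ccr2, which brings monocytes into tissue, was 3.30 higher, the secreted Chil3 7.78, Ly6c2 6.27 and Fn1 5.84. Against the MHC class II cells 2 of 12 monocyte genes were higher, Chil3 and Fn1, and 1 lower, Plac8 at −1.27. Ccr2 stood at −0.42 there, under the 2-fold limit. MHC class II genes moved the opposite way between the contrasts: 5 of 8 were higher than in resident cells, with a median of 1.13. In contrast, 5 of 7 were lower than in MHC class II cells, with a median of −1.15 and Cd74 at −1.44. Those cells were chosen for MHC class II genes, which favours this direction, so it is a description. The difference between these contrasts was not tested.

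Lipid-associated genes were higher in both contrasts. Against resident cells 18 of 30 were higher and 1 lower, with a median of 1.49, and against MHC class II cells 17 of 30 were higher and 0 lower, with a median of 1.4. Fabp5 was 5.78 and 4.31 higher, Lgals3 4.13 and 2.43, and Trem2 1.43 and 1.83. Other lists differed between the contrasts. Glycolysis genes were higher than in resident cells in 12 of 26 cases, but higher than in MHC class II cells in 3 of 25. Cholesterol synthesis genes were higher than in resident cells in 7 of 15 cases and than in MHC class II cells in 0 of 15. Complement genes were lower than in resident cells in 7 of 9 cases and than in MHC class II cells in 1 of 8. Proliferation genes were higher in 12 of 20 and 11 of 20 cases.

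Between the libraries, levels within the selected cells were set side by side with no test. A gene was measured if it had at least 30 UMIs over both libraries in at least 10 selected cells. From Control to HFpEF-scr 203 of 4599 measured genes were at least 2-fold higher (4.41%) and 72 lower (1.57%), with a median log2 ratio of 0.04. From HFpEF-scr to HFpEF-FoxO1-sh 76 of 4523 were at least 2-fold higher (1.68%) and 234 lower (5.17%), with a median of −0.03. HFpEF-scr enters both ratios, so the 2 sets of ratios are not independent. Thinned to 2000 UMIs per cell, the counts became 53 and 7, and 12 and 39.

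Counts of list genes at least 2-fold higher in HFpEF-scr than in Control were small. They were 2 of 29 in the lipid-associated list (Ctsl and Mmp12), 2 of 14 in lipid uptake, storage and oxidation, and 4 of 14 matrix genes, with 1 matrix gene, Mmp14, lower. The lipoprotein lipase Lpl was at 386, 716 and 648 CPM, and Plin2 at 463, 741 and 771 CPM. The HFpEF-scr to Control ratio was 1.85 for Lpl and 1.60 for Plin2, where the other macrophages had 1.10 and 1.68. The cathepsin Ctsl was at 167, 408 and 370 CPM, a HFpEF-scr to Control ratio of 2.44 (1.83 to 3.29) where the other macrophages had 0.90. Both HFpEF libraries were thus above Control for these 3 genes. The matrix protein gene Thbs1 was at 12.2, 272 and 77.1 CPM, a ratio of 22.3 (8.61 to 82.6). Fn1 was at 332, 1052 and 592 CPM, 3.17 times Control where the other macrophages had 1.36. The lipid droplet gene Hilpda was at 9.13, 71.7 and 15.4 CPM, and Fdps at 63.9 CPM in Control and 14.1 in HFpEF-scr. F7, coagulation factor VII, had 0 UMIs in Control and 35 in HFpEF-scr, at least 4.17-fold higher. The median log2 ratio was 0.06 in the lipid-associated list, 0.07 for the same genes in the other macrophages, and 0.46 in the matrix list, 0.26 in the other macrophages. Among genes with at most 25% of the UMIs of the higher library in 1 barcode, the rest of the 8 highest ratios were those of Atp2b4, Akap11, Tm7sf3, Bcl2a1a and Pdlim7, between 5.18 and 6.25, and the lowest included Arrdc1 at 0.24.

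Glycolysis genes are given for both ratios, which share HFpEF-scr. From Control to HFpEF-scr 3 of 20 were at least 2-fold higher and 0 lower, with a median log2 ratio of 0.56 (0.07 in the other macrophages). From HFpEF-scr to HFpEF-FoxO1-sh 0 were higher and 4 lower, namely Pfkp, Ldha, Vegfa and Ero1l, with a median of −0.49 (−0.07 in the other macrophages). Ldha, lactate dehydrogenase A, was at 259, 392 and 185 CPM, a second ratio of 0.47 (0.35 to 0.62) where the other macrophages had 0.98. Pgam1 had a second ratio of 0.59 and the phosphofructokinase Pfkp 0.35. Proliferation genes were at least 2-fold lower in HFpEF-FoxO1-sh in 7 of 16 cases with a median of −0.94, and in the other macrophages the median was −0.56. Ube2c had a ratio of 0.21 (0.11 to 0.36), against 0.37 in the other macrophages.

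Resident and complement genes were at higher levels in the selected cells of HFpEF-FoxO1-sh. Of 14 resident genes 6 were at least 2-fold higher than in HFpEF-scr (Folr2, Cd163, F13a1, Cbr2, Pf4 and Ltc4s) and 1 lower (Clec10a), with a median of 0.83, against 0.37 in the other macrophages. The platelet factor Pf4 was at 883, 620 and 1552 CPM, a ratio of 2.5. Apoe was at 17788, 9166 and 16383 CPM, so Control and HFpEF-FoxO1-sh lay close together and HFpEF-scr lower. Its ratio was 1.79 (1.73 to 1.85), against 1.43 in the other macrophages. The Control levels leaned on single cells, with 127 of 290 Pf4 UMIs in 1 cell and 1497 of 5845 Apoe UMIs in 1 cell. C1qa had a ratio of 1.83 (1.70 to 1.98), against 1.29. The 5 cells with at least 2 UMIs of Timd4 and Lyve1 were 0, 1 and 4 of the libraries, and their part in these values was not tested. Other resident genes were found in more cells, with a Pf4 UMI in 16, 50 and 22 and a Mrc1 UMI in 12, 45 and 19. Lower in HFpEF-FoxO1-sh were the leukotriene receptor Ltb4r1 at 0.06 (1 against 46 UMIs), Trnt1 at 0.09, the phosphatase Dusp5 at 0.14 and the receptor Cd200r1 at 0.15. Among genes with at most 25% of the UMIs of the higher library in 1 barcode, the highest ratios were those of Gm17056 at 4.15 and the oxygen sensor Egln1 at 2.99. Of 29 lipid-associated genes 0 were at least 2-fold higher and 3 lower (Fabp4, Mmp12 and Atp6v0d2), with a median of −0.03.

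**Figure D5:**
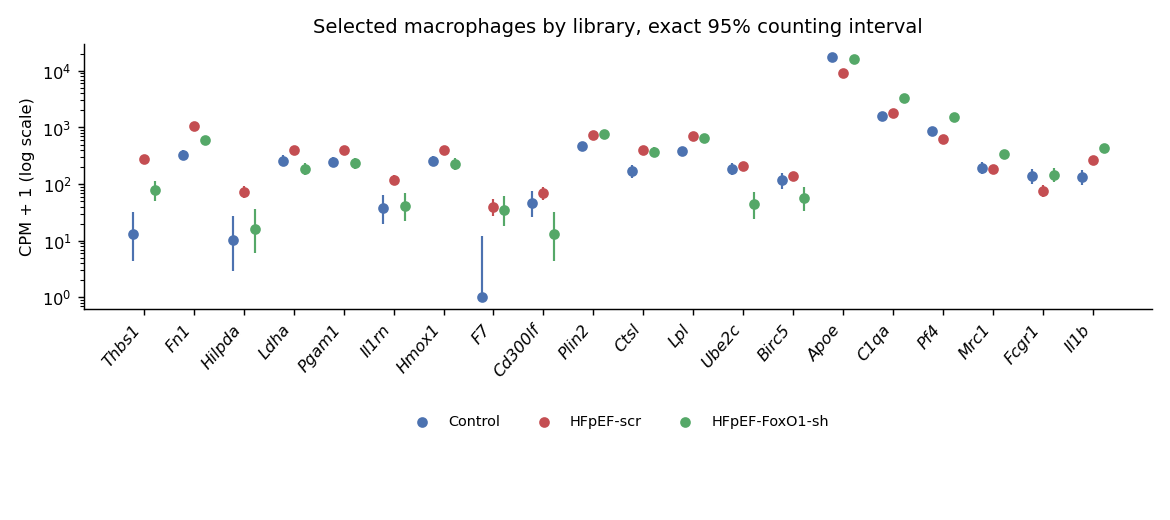
Levels of named genes in the selected macrophages of each library as CPM + 1 on a log axis, 1 point per library with its exact 95% Poisson interval. Ldha and Thbs1 are highest and Apoe lowest in HFpEF-scr, and Ctsl is lowest in Control.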

How the data were processed

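The authors deposited UMI counts per gene and barcode for 3 libraries, made with Cell Ranger 6.1.2 on mm10 (submitters' processing notes; per the file headers also). From these counts barcodes were filtered and selected as described, with no doublet removal, and UMIs were summed per library and cell group. The members and gene lists were chosen with earlier results of these data known. Selected cells were compared with other macrophages in edgeR 4.0.16 (R 4.3.3; TMM, filterByExpr, quasi-likelihood, library as block, Benjamini-Hochberg over all genes tested), which leaves 2 residual degrees of freedom before shrinkage. Each library pools 4 samples, so nothing measures the spread between mice. Between libraries only CPM, ratios and shares with exact 95% intervals are given. They cover counting error alone, and a count of 0 is read as a floor of 3.

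Named genes were the 12 largest increases and 8 largest decreases with one direction in all libraries, up to 4 per list, and in each library comparison the 8 highest and lowest ratios and up to 3 per list, among genes whose interval excludes 1 and with at most 25% of the UMIs of the higher library in 1 barcode. Others were named after their values were seen. DESeq2 1.42.0, other filters, depth matching, thinning and left-out libraries were tried as alternatives. The cell groups of a library come from the same pooled samples, which is the pairing the block uses. The fit was run on simulated counts only as a check of its code. Of 410 listed genes 409 matched the files.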

Additional observations from a re-analysis of the deposited data

Results flagged for a closer look

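There were 6 genes that were at least 2-fold above the other macrophages in 1 library and at least 2-fold below them in another, with counting intervals clear of 1. The differences between libraries were not tested. The ratios of selected to other macrophages are given in the order Control, then HFpEF-scr, then HFpEF-FoxO1-sh. The MHC class II chaperone gene H2-Ob was at 3.73, 1.44 and 0, and its partner H2-Oa at 3.75, 0.257 and 0.347. The chemokine Ccl17 was at 5.39, 2.15 and 0, with 1 barcode holding 46.7% of its UMIs, and the interferon gene Ifi205 at 2.84, 2.10 and 0. Selected cells with dendritic cell markers numbered 6, 6 and 0, and their part in these 4 genes was not tested. Thbs1 was at 0.286, 4.36 and 2.77. Gdf15, a stress cytokine, was at 0.284, 5.61 and 1.81, with 1 barcode holding 53% of its UMIs.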

How the results depend on the processing

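With 133 cells, 162 of the 778 calls against other macrophages rested on fewer than 10 UMIs in the selected cells. Leaving out each library in turn gave 108 to 325 higher and 127 to 466 lower genes against other macrophages, 291 to 584 and 277 to 740 against resident, and 135 to 275 and 145 to 280 against MHC class II macrophages, the lowest value each time without HFpEF-scr. Of the 235 calls without it 215 were among the 778. At a mitochondrial limit of 10% the counts against other macrophages were 179 and 249, those higher than resident 339, and the share ratio of HFpEF-FoxO1-sh to HFpEF-scr 0.140. Matched on depth they were 82 and 118 of 4127 genes tested. DESeq2 gave 275 lower than other, 437 lower than resident and 114 lower than MHC class II macrophages. With no minimum fold the counts were 784 and 763, 1143 and 1093, and 555 and 578. At least 6 UMIs of the choosing genes gave 422 lower than MHC class II macrophages. Among cells with a Gpnmb UMI, an alternative chosen after seeing the data, 747 genes were lower than in other macrophages. There Cenpe (−8.33), Cenpf (−9.29), Hmmr (−8.07), Ccnb2 (−9.05), Ube2c (−10.01) and Birc5 (−10.23) had no UMI, so these fitted log2 fold changes depend on the prior count and give no bound on the size. Mmp19 was −0.63 without HFpEF-scr, in a range of −0.63 to 2.75 over the libraries left out. With no replicate block the calls were 339 and 462, 594 and 740, and 271 and 278, none of these 6 counts moved by over 1.5 times, though the 7 monocyte genes lower than in other macrophages became 0. Between libraries, a minimum of 100 UMIs left 26 and 0 genes past 2-fold from Control to HFpEF-scr and 6 and 31 from HFpEF-scr to HFpEF-FoxO1-sh. Thinning left 53 and 7, and 12 and 39, and at least 6 UMIs left 153 lower in the latter. The other 94 values for these counts and shares were not moved by over 1.5 times, though several intervals of the HFpEF-scr to Control share ratio covered 1. The cause of these shifts was not tested.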

Other observations

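The gene Saa3, an acute phase protein, had a log2 fold change of 5.53 against other macrophages and was called in edgeR, but 2 selected cells carried its UMIs and only 1 library showed it higher. Il1rn, the decoy ligand of the interleukin-1 receptor, was 2.59 higher (SE 0.27, adjusted p = 1.61e-07) and stood at an adjusted p of 0.06 without HFpEF-scr. The immune checkpoint ligand Cd274 was 1.29 higher. Among stress genes 1 of 15, Gdf15 at 1.27, was higher and 0 lower. The median MHC class II level of cells with and without Gpnmb was 2112 and 26621 CPM in Control, 831 and 11393 CPM in HFpEF-scr, and 7532 and 7624 CPM in HFpEF-FoxO1-sh, as medians over cells. Summed over cells, MHC class II genes were lower with Gpnmb in HFpEF-FoxO1-sh too, with H2-Eb1 at 2478 against 4455 CPM and Cd74 at 7045 against 9409 CPM. Differences between libraries were not tested.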
